A study of Mus musculus with 6 samples.

Results

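Hox paralog groups 1 to 3 are the Hox genes of the hindbrain and the uppermost cervical cord, and 7 of them, Hoxb1, Hoxd1, Hoxa2, Hoxb2, Hoxa3, Hoxb3 and Hoxd3, were followed here by symbol in the array annotation. Each had exactly 1 probe set with that symbol alone, so the set is 7 of the 19920 genes with a usable probe set. RNA came from the cervical part of the spinal cord in mouse embryos of embryonic day 11.5, with dorsal cord and floor plate left out, and was read on 3 arrays labelled Nkx2.9 knockout and 3 arrays labelled wild type (A, B and C under each label). The homeodomain protein Nkx2-9 acts in ventral neural progenitors, and the study looked for its effectors as spinal accessory motor neurons form. The labels gave no strain, no account of the deleted part of Nkx2.9 and no statement of whether embryos were pooled, so p-values measure only the spread between these samples.

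Hox genes lie in 4 clusters, HoxA to HoxD, and are numbered by their place in the cluster, with low numbers expressed from the hindbrain backwards and high numbers only further towards the tail. Their homeodomain proteins bind DNA together with TALE partners (Pbx, Meis and Prep proteins), and retinoic acid, Krox20 (Egr2) and Polycomb proteins are among the regulators that set where each is expressed. In the brainstem, genes of groups 1 to 3 give branchial and somatic motor neurons their positional identity. The spinal accessory nucleus lies in the upper cervical cord, just behind that territory.

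The deposited values are log2 values from which the median of each probe set over the 6 arrays had been subtracted, as their medians of 0 show. A value of 0 is therefore that gene's own median, and neither expression levels nor signal over background can be read from it. The cervical origin of the tissue could not be checked against absolute marker levels for the same reason. Nkx2-9 itself stood at -0.07, 0.26 and 0.11 in arrays labelled knockout A, B and C, against -0.21, 0.07 and -0.11 in the wild-type arrays A, B and C. It was thus not lower in the arrays labelled knockout (difference 0.18, SE 0.11, adjusted p = 0.812 in limma). Whether its probes lie in the deleted part is not known here, and every direction below rests on the labels. The arrays labelled knockout B and C stood apart by Xist, the X-inactivation RNA, at 4.56 and 4.91, against 0.11 in the array labelled knockout A and -0.25 to -0.11 in wild type. The Y-linked genes Eif2s3y, Uty and Kdm5d stood at -3.20 to -2.57 on those arrays, against -0.03 to 0.17 in knockout A and wild type. By these genes knockout B and C read as female and the other arrays as male, so sex and label were partly confounded. Mesenchyme markers were highest in the array labelled knockout C and cell cycle genes lowest in wild-type B, with values given beside the genes they touch.

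The stretches just upstream of the 3 members with the largest differences between groups are shown first. They run from 250 to 16 bases before the RefSeq gene start, 5′ to 3′ on the gene's strand, in build GRCm38.p6, and lie at chr11:96365508-96365742 on the plus strand for Hoxb1, chr6:52164847-52165081 on the minus strand for Hoxa2 and chr2:74711743-74711977 on the plus strand for Hoxd3. Capitals mark matches, on either strand, to TGATNNAT or TGACAG. TGATNNAT is a form of the paired site of a Pbx and Hox dimer, and TGACAG a site of Meis and Prep proteins. Other forms of these sites were not searched and stay in lower case.
Hoxb1: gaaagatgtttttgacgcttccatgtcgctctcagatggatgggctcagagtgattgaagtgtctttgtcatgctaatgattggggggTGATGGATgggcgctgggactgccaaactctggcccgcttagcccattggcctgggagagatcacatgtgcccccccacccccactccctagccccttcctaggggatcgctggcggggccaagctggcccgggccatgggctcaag
Hoxa2: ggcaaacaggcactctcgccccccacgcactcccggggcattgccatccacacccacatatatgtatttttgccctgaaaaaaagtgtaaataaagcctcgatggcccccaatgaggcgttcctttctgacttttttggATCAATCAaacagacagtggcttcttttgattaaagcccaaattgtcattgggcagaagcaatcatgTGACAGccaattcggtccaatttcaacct
Hoxd3: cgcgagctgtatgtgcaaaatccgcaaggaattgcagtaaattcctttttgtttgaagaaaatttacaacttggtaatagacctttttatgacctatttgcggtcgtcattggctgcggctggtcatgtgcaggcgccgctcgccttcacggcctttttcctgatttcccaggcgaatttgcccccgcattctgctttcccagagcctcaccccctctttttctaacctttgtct
RefSeq windows were at hand for 5 members, Hoxb1, Hoxd1, Hoxa2, Hoxa3 and Hoxd3. Of these 5, Hoxb1 and Hoxa2 held TGATNNAT, each 1 time, a motif present in 7.36% of 32851 RefSeq windows of the same length. The match began 162 bases before the start of Hoxb1, and in Hoxa2 it lay on the opposite strand from 111 to 104 bases before the start. TGACAG occurred in the Hoxa2 window alone among the 5, and in 15.1% of all windows, with no overlap of the 2 motifs. These matches describe the letters of the windows, and the arrays measured no binding there.

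Across the 7 members no difference passed limma's test. None had an adjusted p under 0.05, a threshold that 0% of the 28815 probe sets passed. None had an unadjusted p under 0.05 either, against 5.57% of all probe sets (3.07% on the higher and 2.5% on the lower side under the knockout label). With all 6 arrays 4 members were higher and 3 lower, and the median difference was 0.04, beside 55% of all probe sets and 55.1% of the 19920 genes higher, with a median over genes of 0.01. Leaving out wild-type B put the members' median at -0.03, and leaving out knockout A put it at -0.004. The plot of member values by array shows the overlap of the groups in all but 1 gene.

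**Figure D1:**
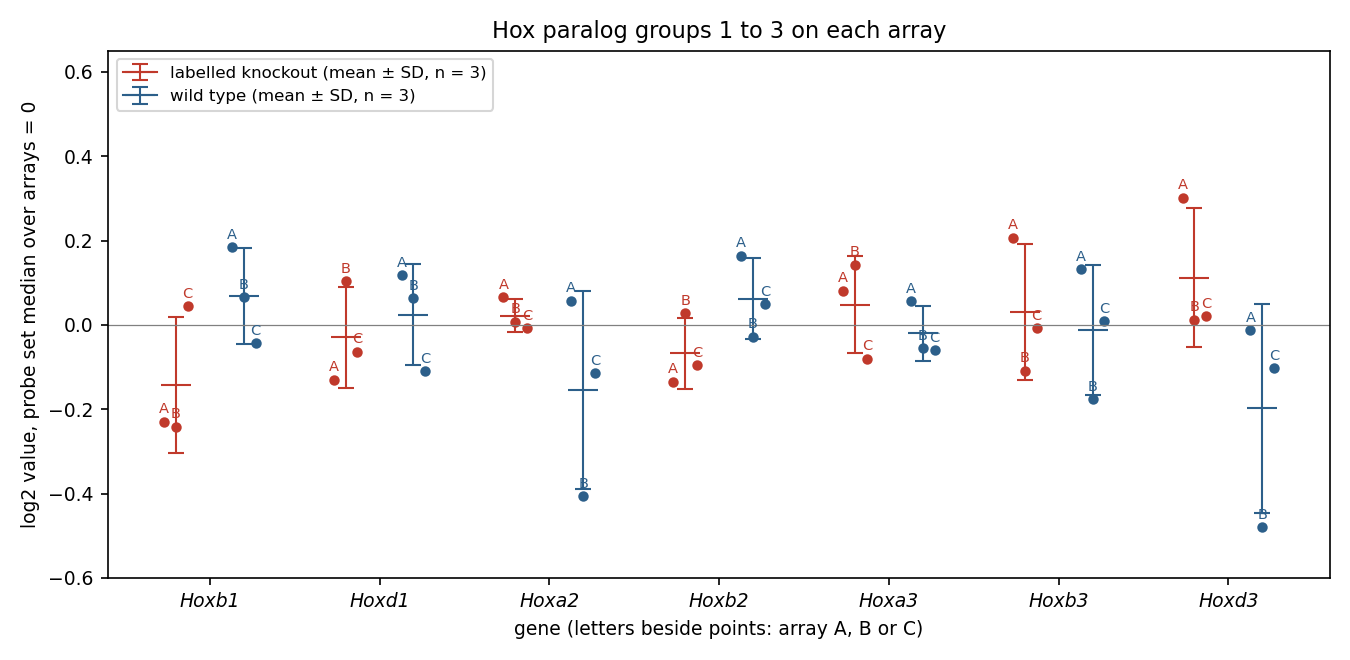
Log2 values of the 7 Hox genes, with each probe set's median over the arrays at 0, in the arrays labelled knockout (left of each pair, red) and wild type (right, blue). Letters name the array, and bars give the mean ± SD of 3 arrays. Hoxd3 is the 1 gene whose groups do not overlap, and wild-type B is lowest for Hoxa2 and Hoxd3, at -0.41 and -0.48.

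Hoxb1, which is kept on by its own protein in a single hindbrain segment and gives facial motor neurons their identity, had the most negative difference of the 7, though it did not pass the test. It stood at -0.23, -0.24 and 0.04 in arrays labelled knockout A, B and C, against 0.18, 0.07 and -0.04 in the wild-type arrays A, B and C. Arrays labelled knockout A and B lay below all wild-type arrays, while knockout C lay above wild-type C, so the groups overlapped. The means were -0.14 ± 0.16 under the knockout label and 0.07 ± 0.11 in wild type (SD, n = 3 each), a difference of -0.21 (SE 0.10, 95% interval -0.45 to 0.02), or 1.16-fold lower, with adjusted p = 0.812 in limma. Leaving out 1 array moved it between -0.30 (knockout C left out) and -0.15 (wild-type A left out), and it was -0.27 with wild-type C left out. Mesenchyme markers in the array labelled knockout C had a median of 0.96, against -0.07 to 0.16 in wild type, and their part in the Hoxb1 value was not tested.

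Hoxd1, the other measured member of group 1, is best known in the mouse from pain-sensing neurons of the dorsal root ganglia. It had -0.13, 0.10 and -0.06 in arrays labelled knockout A, B and C, against 0.12, 0.06 and -0.11 in the wild-type arrays A, B and C. High and low arrays were mixed between the groups. Its difference was -0.05 (SE 0.09, 95% interval -0.26 to 0.15, adjusted p = 0.927 in limma). As a ratio to wild type, the interval runs from 0.835 to 1.11. The difference was -0.004 with knockout A left out and -0.12 with wild-type C left out. Sensory ganglion markers, 3 measured of 5 listed, had array medians of -0.01 to 0.14 under the knockout label and -0.09 to 0.04 in wild type.

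In group 2 the measured members lay on opposite sides of 0. Hoxa2, the Hox gene expressed furthest forward and the selector of the second pharyngeal arch, had 0.07, 0.01 and -0.01 in arrays labelled knockout A, B and C, against 0.06, -0.41 and -0.12 in the wild-type arrays A, B and C. The arrays labelled knockout were close together, whereas wild-type B lay far below the other 5 arrays, and wild-type A lay among them, so the groups overlapped. Means of 0.02 ± 0.04 under the knockout label and -0.15 ± 0.23 in wild type (SD, n = 3 each) gave a difference of 0.18 (SE 0.11, 95% interval -0.10 to 0.45), or 1.13-fold higher, with adjusted p = 0.812 in limma. Leaving out wild-type B gave 0.05, and leaving out wild-type A gave 0.28. Hoxb2, a target of Hoxb1 and Krox20 in hindbrain segments, had -0.13, 0.03 and -0.10 in arrays labelled knockout A, B and C, against 0.16, -0.03 and 0.05 in the wild-type arrays A, B and C. Arrays labelled knockout A and C were the lowest of the 6 and wild-type A the highest, with knockout B and wild-type B crossing over. Its difference was -0.13 (SE 0.07, 95% interval -0.30 to 0.04), or 1.09-fold lower, with adjusted p = 0.812 in limma. It was -0.08 with wild-type A left out and -0.20 under the Xist term, which adds the arrays high in Xist to the fit.

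In group 3 all of the 3 measured members had a positive difference, and the largest of the 7 was that of Hoxd3. Hoxd3, which patterns the first neck vertebrae, had 0.30, 0.01 and 0.02 in arrays labelled knockout A, B and C, against -0.01, -0.48 and -0.10 in the wild-type arrays A, B and C. The lowest array labelled knockout lay just above the highest wild-type array, and most of the distance came from knockout A and wild-type B. The means were 0.11 ± 0.16 under the knockout label and -0.20 ± 0.25 in wild type (SD, n = 3 each), a difference of 0.31 (SE 0.14, 95% interval -0.03 to 0.65), or 1.24-fold higher, with unadjusted p = 0.0675 and adjusted p = 0.812 in limma. Groups that do not overlap, 1 of 7 here, were found in 10.9% of complete probe sets (6.68% with the knockout label higher, 4.25% with it lower), so the count is near the background. Leaving out wild-type B gave a Hoxd3 difference of 0.17, and leaving out knockout A gave 0.21. Wild-type B also had the lowest cell cycle median, -0.55, against -0.09 to 0.25 under the knockout label and -0.08 and 0.04 in the other wild-type arrays, and its part in the Hoxa2 and Hoxd3 values was not tested.

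Hoxa3, needed for the thymus and parathyroid and for neck ganglia, had 0.08, 0.14 and -0.08 in arrays labelled knockout A, B and C, against 0.06, -0.06 and -0.06 in the wild-type arrays A, B and C. Its range over the arrays, 0.22, was the smallest of the 7, and its difference was 0.07 (SE 0.07, 95% interval -0.10 to 0.24), or 0.02 with knockout B left out and 0.13 with knockout C left out. Hoxb3, which acts with Hoxa3 in somatic motor neurons of the hindbrain, had 0.21, -0.11 and -0.01 in arrays labelled knockout A, B and C, against 0.13, -0.18 and 0.01 in the wild-type arrays A, B and C. Its high array was A and its low array B under both labels, and the difference between groups was 0.04 (SE 0.11, 95% interval -0.22 to 0.30). The groups overlapped in both genes, and the adjusted p in limma was 0.873 for Hoxa3 and 0.963 for Hoxb3. For Hoxb3 the sign depended on single arrays, since the difference was -0.05 with knockout A left out and -0.04 with wild-type B left out. In bulk tissue fewer cells of a type and less RNA per cell cannot be told apart for any of these genes.

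**Figure D2:**
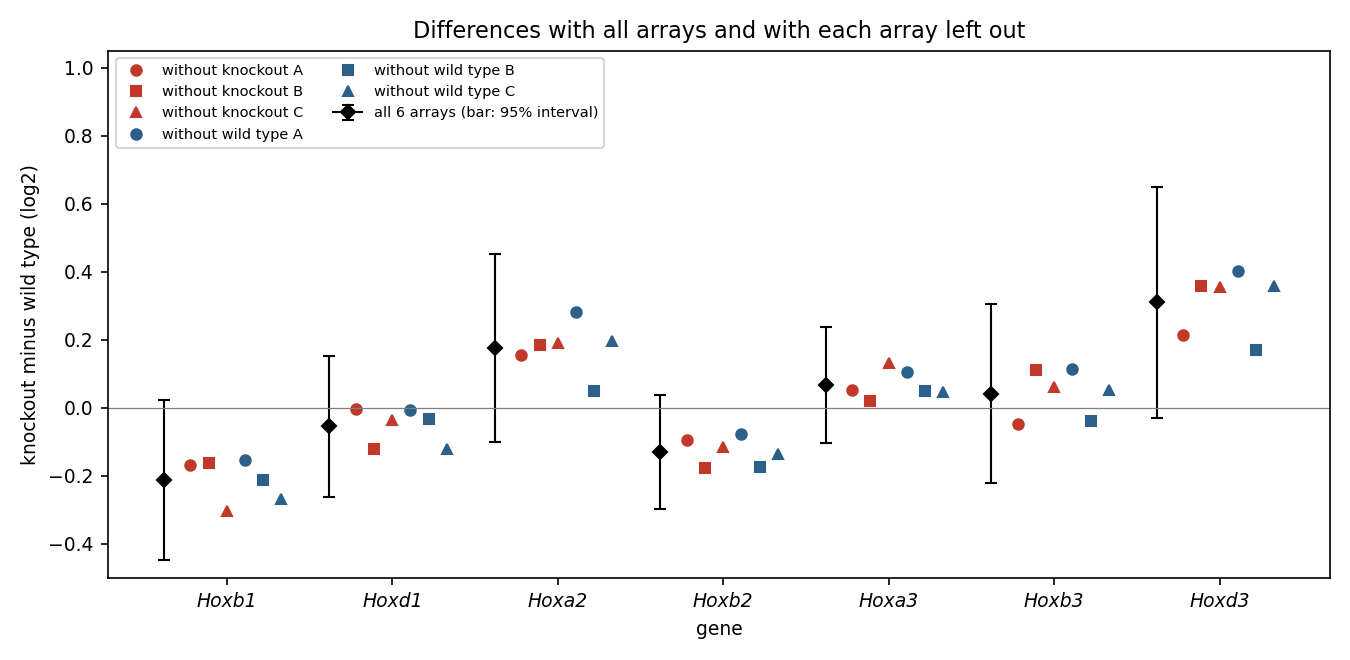
Difference of the arrays labelled knockout from wild type on the log2 scale for each gene, with all 6 arrays (black diamond, 95% interval) and with 1 array left out (red for arrays labelled knockout, blue for wild type). All 7 intervals include 0, and Hoxb3 is the 1 gene whose sign turns.

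By cluster, the members of HoxA and HoxD averaged higher and those of HoxB lower. The mean of Hoxa2 and Hoxa3 was 0.07, 0.08 and -0.04 in arrays labelled knockout A, B and C, against 0.06, -0.23 and -0.09 in the wild-type arrays A, B and C. The mean of Hoxd1 and Hoxd3 followed nearly the same course, at 0.09, 0.06 and -0.02 under the knockout label, against 0.05, -0.21 and -0.11 in wild type. The mean of Hoxb1, Hoxb2 and Hoxb3 was -0.05, -0.11 and -0.02 under the knockout label, against 0.16, -0.05 and 0.00 in wild type. In every cluster the groups overlapped. The difference was 0.12 for HoxA, with SDs over arrays of 0.07 under the knockout label and 0.14 in wild type. It was 0.13 for HoxD (SDs of 0.06 under the knockout label and 0.13 in wild type) and -0.10 for HoxB (0.04 under the knockout label and 0.11 in wild type). Each was larger than the knockout-labelled SD and smaller than the wild-type SD. Leaving out wild-type B gave 0.05 for HoxA and 0.07 for HoxD, leaving out wild-type A gave -0.04 for HoxB, and with wild-type A left out HoxA and HoxD stood at 0.19 and 0.20. By paralog group the mean differences were -0.13 for group 1, 0.02 for group 2 and 0.14 for group 3. These too moved with single arrays, with lowest and highest values of -0.19 and -0.08 for group 1, -0.06 and 0.10 for group 2, and 0.06 and 0.21 for group 3 as each array was left out. Within HoxB the difference climbed with gene number, at -0.21 for Hoxb1, -0.13 for Hoxb2, 0.04 for Hoxb3 and 0.20 for Hoxb4, but it was 0.17 at Hoxb5 and -0.30 at Hoxb6, and no test of such an order was made.

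**Figure D3:**
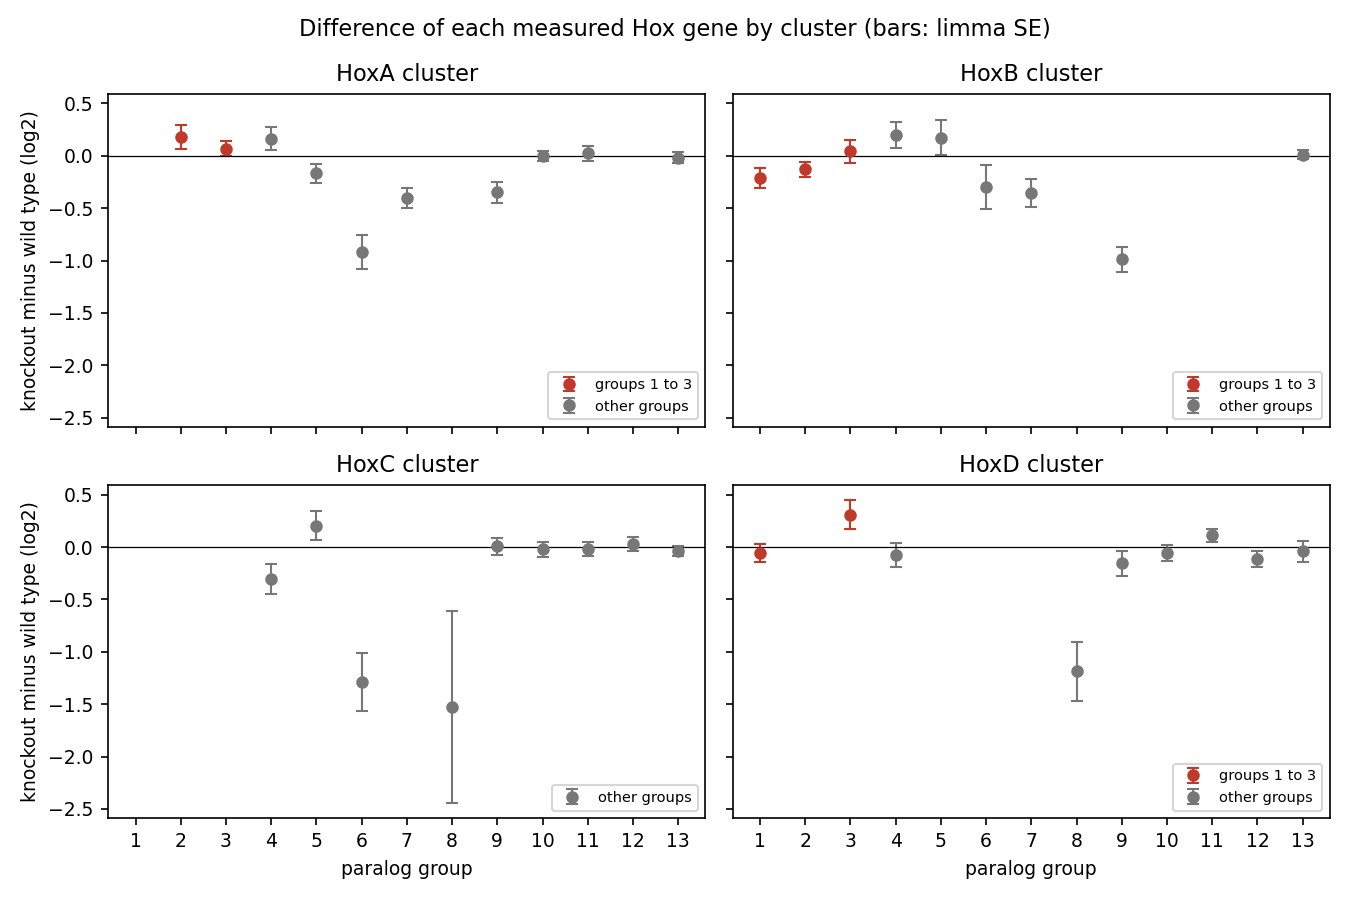
Difference of the arrays labelled knockout from wild type (log2, bars are limma standard errors) against paralog group, in a panel for each Hox cluster. Members of groups 1 to 3 (red) lie between -0.21 and 0.31, and the lowest values belong to genes of groups 6 to 9.

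Paralogs of the same group were then set against each other within each array, which removes anything that scales all genes of an array alike. Hoxa2 minus Hoxb2 was 0.20, -0.02 and 0.09 in arrays labelled knockout A, B and C, against -0.11, -0.38 and -0.16 in the wild-type arrays A, B and C. All 3 arrays labelled knockout lay above all 3 wild-type arrays, and the shift was 0.31. Hoxb3 minus Hoxd3 was -0.09, -0.12 and -0.03 under the knockout label, against 0.14, 0.30 and 0.11 in wild type. Here too the groups were apart, with a shift of -0.27, though Hoxd3 by itself did not overlap either. How often gene pairs in general do not overlap was not counted, so these pairs have no background beside them. Both pairs had an exact two-sided permutation p of 0.1, the smallest that 3 arrays against 3 can give, and 0.25 after adjustment over the 5 pairs. This exact test cannot go under 0.05 with 6 arrays, and no test that assumes a distribution was run on the pairs. The pairs Hoxb1 and Hoxd1 (-0.16), Hoxa3 and Hoxd3 (-0.24) and Hoxa3 and Hoxb3 (0.03) overlapped between groups, with exact permutation p of 0.4, 0.3 and 0.9. With each array left out in turn the shift of Hoxa2 minus Hoxb2 stayed between 0.22 and 0.36, and that of Hoxb3 minus Hoxd3 between -0.31 and -0.21. The range was -0.27 to -0.04 for Hoxb1 minus Hoxd1, -0.34 to -0.12 for Hoxa3 minus Hoxd3 and -0.09 to 0.10 for Hoxa3 minus Hoxb3.

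The 7 genes were unlike in how much they varied. The range over the 6 arrays was 0.78 for Hoxd3, more than in 96.1% of complete probe sets, 0.47 for Hoxa2 (86.3%) and 0.43 for Hoxb1 (83%), down to 0.22 for Hoxa3 (48.4%). Wild-type A held the highest value of Hoxb1, Hoxd1 and Hoxb2, and 6 of 7 members were above 0 there. Wild-type B held the lowest value of Hoxa2, Hoxb3 and Hoxd3, and the array labelled knockout A held the highest value of the same 3 genes. Among the members the profile nearest to Hoxa2 was that of Hoxd3, whose root mean square difference over the 6 arrays was 0.63 of the size of Hoxa2's own variation.

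**Figure D4:**
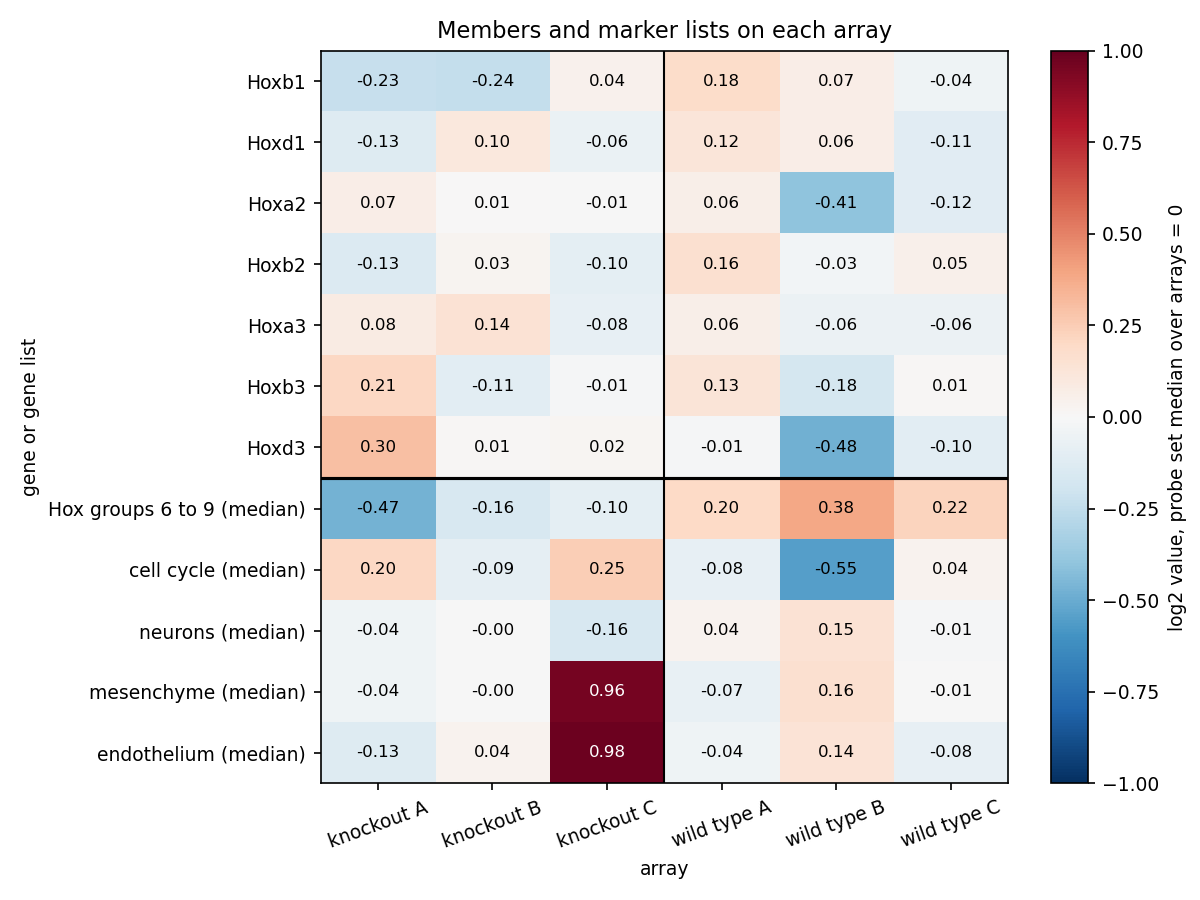
Log2 values (each probe set's median over arrays at 0) of the 7 genes above the line and array medians of marker lists below it, for each array, with arrays labelled knockout left of wild type. Wild-type B is low for Hoxa2, Hoxd3 and cell cycle genes, and the mesenchyme and endothelium medians reach 0.96 and 0.98 in the array labelled knockout C.

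Other cell types could add Hox signal of their own, so their marker lists were read on the same arrays. Mesenchyme markers were all measured (10 of 10) and endothelial ones too (5 of 5), with medians of 0.96 and 0.98 in the array labelled knockout C, against at most 0.04 in the other 2 arrays of that label and at most 0.16 in wild type. The members lay between -0.10 and 0.04 on that array, which held the lowest value of Hoxa3 and the highest knockout-labelled value of Hoxb1. Wild-type B had the next highest medians, 0.16 for mesenchyme and 0.14 for endothelium, with single mesenchyme markers from -0.004 to 1.21 there. The part of these markers in the member values was not tested. Hindbrain markers outside the Hox family, 7 measured of 9 listed, had array medians of -0.03 to 0.05 under the knockout label and -0.02 to 0.03 in wild type. Floor plate markers, 6 of 6 measured, had 0.01 to 0.13 and -0.10 to 0.02 in that order. Of these, 2 were higher at an unadjusted p under 0.05 in limma, against 5.57% of all probe sets. Dorsal cord markers, 9 measured of 10 listed, had -0.09 to -0.004 under the knockout label and -0.02 to 0.04 in wild type. The part of these lists was not tested. Neuronal markers, 10 of 10 measured, had array medians of -0.16 to -0.004 under the knockout label, against -0.01 to 0.15 in wild type. Among them 9 were lower and 1 higher. At an unadjusted p under 0.05 in limma 2 were lower, against 5.57% of all probe sets. Their part was not tested either. With a term for the 2 arrays high in Xist, which reads the genotype from the array labelled knockout A against wild type, Hoxd3 was at 0.50 and Hoxb1 at -0.30, and no member passed over all probe sets.

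Hox genes of higher number were read on the same arrays. In groups 4 and 5, which overlap the upper cervical cord, 4 of 7 measured genes were higher and the median was 0.17, though 0.02 without wild-type B. Hoxc4 (-0.30, SE 0.14) and Hoxa5 (-0.17, SE 0.09) had the lowest p there. In groups 6 to 9, which mark brachial and thoracic cord, 10 of 11 were lower with a median of -0.40 (-0.76 with the Xist term). Of the 11, 7 had an unadjusted p under 0.05 in limma, against 0 of 7 in groups 1 to 3 and 5.57% of all probe sets. These 7 genes were Hoxb9 (-0.99, SE 0.12), Hoxa6 (-0.92, SE 0.16), Hoxc6 (-1.29, SE 0.27), Hoxd8 (-1.19, SE 0.29), Hoxa7 (-0.40, SE 0.09), Hoxb7 (-0.36, SE 0.14) and Hoxa9 (-0.35, SE 0.10), all with adjusted p = 0.812. Hoxc8 had the most negative difference of that list, -1.53 (SE 0.92), with wild-type B at 3.56 and the other 5 arrays at -0.47 to 0.27, and it was at -0.38 with wild-type B left out. Wild-type B was the highest array for the list median (0.38 there) and the lowest for Hoxa2 and Hoxd3. Groups 10 to 13 had a median of -0.02 over 12 genes (0.01 with knockout A left out, -0.06 under the Xist term), with Hoxd11 at 0.11 (SE 0.07) and Hoxd12 at -0.11 (SE 0.08). The difference between groups 1 to 3 and groups 6 to 9 was not tested as such.

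Several members share their stretch of DNA with other genes, and these were read beside them, chosen by position after their values were known. In RefSeq the span of Hoxa3 overlaps Hoxa4, Hoxa5, Hoxa6 and Hoxaas2, that of Hoxb3 overlaps Hoxb4 and Mir10a, and that of Hoxd3 overlaps Hoxd4, Mir10b and Hoxd3os1, so signal of these genes may not be fully separate. Hoxa4 was at 0.17 (SE 0.11) and Hoxb4 at 0.20 (SE 0.12), like their neighbours of group 3 on the positive side, while Hoxd4 was at -0.07 (SE 0.11) beside the 0.31 of Hoxd3. Hoxa5 (-0.17) and Hoxa6 (-0.92), in the Hoxa3 span, lay on the negative side, opposite to Hoxa3 at 0.07. The noncoding RNA Hoxaas2 had 0.04, 0.06 and 0.02 in arrays labelled knockout A, B and C, against -0.02, -0.08 and -0.10 in the wild-type arrays A, B and C, with no overlap (difference 0.11, SE 0.04, unadjusted p = 0.0362, adjusted p = 0.812 in limma). The 2 probe sets of Hoxd3os1 were at -0.03 (SE 0.14) and -0.20 (SE 0.31). Of the 7 measured cluster RNAs, 1 was higher and 1 lower at an unadjusted p under 0.05 in limma, against 5.57% of all probe sets. The lower one was Mir196a-1 near Hoxb9 at -0.23 (SE 0.06).

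The microRNAs that overlap the Hoxb3 and Hoxd3 spans are near copies, shown with the seed, bases 2 to 8, in capitals.
mmu-miR-10a-5p: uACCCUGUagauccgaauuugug
mmu-miR-10b-5p: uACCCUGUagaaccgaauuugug
The RefSeq sequences differ by U12A, miR-10a base first and positions counted from the 5′ end, and share their seed, and they map to chr11:96317186-96317208 and chr2:74726074-74726096, both on the plus strand of GRCm38.p6. Mir10a had 0.04, -0.19 and 0.02 in arrays labelled knockout A, B and C, against 0.04, -0.02 and -0.21 in the wild-type arrays A, B and C, a difference of 0.02 (SE 0.09). Mir10b had 0.10, -0.15 and 0.43 under the knockout label, against 0.01, -0.05 and -0.01 in wild type, a difference of 0.14 (SE 0.14) that was -0.01 without the array labelled knockout C. Such probe sets read RNA of the locus and may not measure the mature microRNA.

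Genes flanking the clusters leaned no one way. Of the 10 measured, 4 were higher and 6 lower, with a median of -0.08 (-0.04 with either knockout A or wild-type C left out). Evx2, at the far end of HoxD from Hoxd1, was at 0.21 (SE 0.07) and Skap2, outside the low-numbered end of HoxA, at -0.20 (SE 0.08). They were the only flanking genes with an unadjusted p under 0.05 in limma, a threshold that 5.57% of all probe sets passed. At the edges next to the members, Mtx2 beyond Hoxd1 was at 0.12 (SE 0.05) and Skap1 beyond Hoxb1 at -0.08 (SE 0.08).

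Regulators and partners of these Hox genes were counted next, against the 5.57% of probe sets with an unadjusted p under 0.05. Among TALE cofactors 2 of 8 measured genes were higher and 6 lower (median -0.07, but -0.01 with knockout C left out and 0.01 under the Xist term), none at that p, with Meis3 at -0.11 (SE 0.10) and Pbx4 at -0.08 (SE 0.08). The 7 measured upstream factors of hindbrain and caudal patterning were all on the positive side at a median of 0.02, and none reached that p, with the signal Fgf8 at 0.04 (SE 0.04) and the caudal factor Cdx2 at 0.03 (SE 0.05). That median was -0.03 with the Xist term and -0.01 without the array labelled knockout C.

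In the retinoic acid pathway 11 of 17 genes were higher and 6 lower, with a median of 0.01 that changed sign with single arrays, and 2 had an unadjusted p under 0.05. Dhrs3, which turns retinaldehyde back to retinol, had -0.65, -0.25 and -0.32 in arrays labelled knockout A, B and C, against 0.54, 0.25 and 0.53 in the wild-type arrays A, B and C, a difference of -0.85 (SE 0.13). The groups were well apart in that gene, yet its adjusted p was 0.812 in limma. The retinoid receptor partner Rxra had 0.30, 0.03 and 0.09 under the knockout label, against -0.03, -0.16 and -0.14 in wild type, a difference of 0.25 (SE 0.08). Its highest array, knockout A, was also the highest for Hoxd3.

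Among Polycomb and Trithorax genes 9 of 18 were higher and 9 lower, with a median of -0.01 that ran from -0.03 to 0.003 as arrays were left out, and 3 at an unadjusted p under 0.05. Cbx8, a Polycomb protein that reads a repressive histone mark, was at -0.25 (SE 0.05), and Kmt2a, a Trithorax methyltransferase that keeps Hox genes active, was at 0.11 (SE 0.05). Kdm6a, an X-linked histone demethylase, was at 0.38 (SE 0.15). Its values of 0.37 and 0.58 in the arrays labelled knockout B and C, against -0.02 in knockout A and -0.14 to 0.02 in wild type, were high on the same arrays as Xist, and with the Xist term it was at 0.05.

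Genes described elsewhere as targets of group 1 and 2 proteins were on both sides of 0, with a median of 0.05 (0.01 without wild-type C). Of these, 7 of 10 were higher, beside 55.1% of all genes. The 10 include the member Hoxb2, on the lower side at -0.13. Epha2, an Eph receptor whose hindbrain enhancer answers to group 1 proteins, was at 0.25 (SE 0.05), and Gata2, a factor acting below Hoxb1 in hindbrain neurons, at 0.16 (SE 0.05). Robo2, a Slit receptor linked to Hoxa2 in migrating hindbrain neurons, was at -0.72 (SE 0.28). All 3, of the 10 measured, had an unadjusted p under 0.05 in limma, against 5.57% of all probe sets. Each had adjusted p = 0.812 in limma. For Robo2, leaving out arrays labelled knockout gave -0.49 (C) to -1.01 (B).

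Genes with the most similar course over the 6 arrays were found for each member among 19913 others, by the root mean square difference relative to the member's own variation. For Hoxa2 the nearest was Haglr, a noncoding RNA gene that RefSeq places between Hoxd3 and Hoxd1. Haglr had 0.09, 0.02 and -0.02 in arrays labelled knockout A, B and C, against 0.02, -0.51 and -0.22 in the wild-type arrays A, B and C, and its relative difference from Hoxa2 was 0.31. Both were low in wild-type B above all. The nearest genes were Upp1 for Hoxd3 (0.17), Gtpbp8 for Hoxb1 (0.23), Dhdh for Hoxd1 (0.26), 4930483J18Rik for Hoxb2 (0.18), Rai1 for Hoxa3 (0.15) and Thbs3 for Hoxb3 (0.16). With only 6 arrays many genes come this close, and between 43 and 73 genes lay within a relative difference of 0.5 of each member.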

How the data were processed

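Total RNA was amplified to sense-strand cDNA, labelled with biotin and hybridised to 6 arrays, per the labels' protocols. RMA, named in the submitters' processing notes, gave the log2 values that the authors deposited; version and settings are not given in the sources used here, and the log base was taken as 2. The median of all 28791 complete probe sets over the arrays was 0 within 1e-06, so levels and background are lost while differences remain. For the other 24 of the 28815 probe sets wild-type C is blank, so the fit used 5 arrays; no named gene is among them.

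Probe sets with 1 symbol in the platform annotation were used (21780; 1605 had several symbols, 5430 none), keeping for each gene the complete one with the most accessions. Differences were fitted with limma 3.58.1 in R 4.3.3 on all probe sets, genotype as the only term, with Benjamini-Hochberg adjustment over all of them and a threshold of 0.05. The fit was tested on simulated data. Paralog pairs had an exact two-sided permutation test. No pair of arrays held identical values. The members and gene lists were chosen with earlier results of these data known. Genes named were the members, the nearest gene per member and Nkx2-9. In each list other than the marker lists, those at unadjusted p under 0.05 or else the 2 of lowest p were named. Marker lists were read as array medians and counts, apart from the sex genes, which were named singly. Progenitor, motor neuron, neural crest, erythroid and macrophage markers were read too but are not described. Hoxc8 was added for its size after its values were seen. Hoxb5, Hoxb6, Skap1, Mtx2 and the genes overlapping member spans were added by position. Sequences and gene order are from RefSeq, GRCm38.p6. Alternatives were a replicate block by letter, quantile normalization, median centring, array weights, a robust prior, an Xist term, a single probe set for each gene, an unequal-variance test and leaving out each array.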

Additional observations from a re-analysis of the deposited data

How the results depend on the processing

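No member passed an adjusted p of 0.05 under any of the 14 alternatives run, nor did any gene of the Hox, cluster, partner, regulator and target lists. The marker lists were not counted in this way, and 5 probe sets of the whole table passed with knockout A left out. For the paralog pairs the exact test cannot reach 0.05 under any of its 9 alternatives, so no stability can be read from the lack of calls. The lowest adjusted p of a member was 0.467, for Hoxd3 with the letter as a replicate block, where its difference of 0.31 had a standard error of 0.08. Whether the letters pair the arrays is not known here. Deviations from the group means correlated at 0.16 for A, 0.22 for B and 0.02 for C, against -0.19 to 0.04 between unlike letters. The block changed no call at an adjusted p of 0.05, while the standard error of Hoxb3 was 0.05 with it and 0.11 without. Of the 7 members 6 kept their sign in all 14. The replicate block, the robust prior, the single probe set per gene and the unequal-variance test leave the difference itself unchanged. No sign could turn under those, so only the other alternatives bear on it. As single arrays were left out Hoxb3, at 0.04, spanned -0.046 (knockout A) to 0.114 (wild-type A), and was -0.040 without wild-type B. With the Xist term Hoxb3 was higher still, at 0.219. Hoxa3 minus Hoxb3, at 0.03, spanned -0.091 (knockout B left out) to 0.098 (knockout A left out), and was -0.0081 and -0.0043 with wild-type A and C left out in turn. The median over the members turned to -0.034 with wild-type B left out and to -0.004 with knockout A left out. At an unadjusted p under 0.05 there was 1 member with the block, with array weights, with the Xist term and without the array labelled knockout C, and there were 2 without wild-type A. The share of all probe sets at that p was counted for the main fit only, so these counts have no background beside them. Scaling moved the median of all probe sets by -0.0065 (quantile) or -0.0049 (median centring). With 3 arrays a group, the interval of Hoxd3 still reaches 1.57-fold higher.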
